A study of Mus musculus with 20 samples.

Results

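Schwann cell and myelin genes were followed in plantaris tendon as 8 genes, Sox10, Prx, Mag, Mbp, Pmp22, Cnp, S100b and Ngfr, each found by its gene name among the 24885 genes with counts. All 8 had 1 row each and all 8 passed the filter on low counts, which left 18918 genes for testing. RNA was sequenced from tendons of mice whose Igf1r alleles are flanked by flox sites (IGF1Rflox/flox), a state shared by every group. KO day 7 and KO day 14 mice were ScxCreERT2+/+, carrying a tamoxifen-activated Cre recombinase under Scx, a gene of tenocytes, the resident tendon fibroblasts. They had tamoxifen and a growth stimulus for 7 or 14 days. WT day 7 and WT day 14 mice were ScxCreERT2-/- with the same tamoxifen and stimulus. WT day 0 mice were ScxCreERT2-/- with neither, so tamoxifen and the stimulus cannot be told apart in any comparison with day 0. Each of the 5 groups had 4 libraries. The labels give neither the age of the mice nor whether these libraries came from separate animals, so p-values measure only the spread between libraries, which may be technical. KO mice without the stimulus were not analysed here.

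Schwann cells are the glia of peripheral nerve. Myelinating Schwann cells wrap large axons in compact myelin, while non-myelinating (Remak) cells ensheath small ones. The transcription factor Sox10 is needed at every stage of the lineage and, with Egr2, switches on the myelin genes. After nerve injury Schwann cells shut down myelin genes and take on a repair state marked by Ngfr and Gfap. Tendon carries small nerve branches, mostly in its outer sheaths, so their RNA is a minor part of a whole tendon sample.

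The recombinase targets tenocytes, not Schwann cells, and the targeted gene was read first. Igf1r, counted over the whole gene, was 49.0 to 55.0 CPM (the count scaled by library size, with TMM factors) in libraries labelled KO day 7, against 46.0 to 50.8 CPM in those labelled WT day 7. It was 49.8 to 60.3 CPM in libraries labelled KO day 14, against 40.5 to 48.7 CPM in those labelled WT day 14. At neither day was it lower under the KO label, and a whole-gene count does not check a deletion of part of the gene in 1 cell type. KO and WT name the labels throughout. Library depth was 32.3 to 63.5 M counts.

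The start regions of 4 genes are shown. Pmp22, Prx and Cnp were lower than at WT day 0 on both later WT days, and Mag was higher at WT day 7. Sox10 and Mbp also fell on both days and are not shown. Each window runs from 250 bases before to 50 bases after a RefSeq start (GRCm38.p6), 5′ to 3′ on the gene's strand, taking the start nearest the annotated gene start. Capitals mark every match to ACAAAG, the core bound by SOX factors, or to GTGGGNG, bound by EGR factors, on either strand (reverse complements CTTTGT and CNCCCAC). Marked matches do not overlap each other.
Prx, chr7:27499074-27499373, plus strand: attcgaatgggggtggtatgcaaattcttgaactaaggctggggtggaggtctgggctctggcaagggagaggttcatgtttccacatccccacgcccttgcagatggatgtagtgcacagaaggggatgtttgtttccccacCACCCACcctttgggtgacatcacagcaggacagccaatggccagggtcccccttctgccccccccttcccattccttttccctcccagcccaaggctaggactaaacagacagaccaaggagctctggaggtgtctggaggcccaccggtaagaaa
Pmp22, chr11:63128732-63129031, plus strand: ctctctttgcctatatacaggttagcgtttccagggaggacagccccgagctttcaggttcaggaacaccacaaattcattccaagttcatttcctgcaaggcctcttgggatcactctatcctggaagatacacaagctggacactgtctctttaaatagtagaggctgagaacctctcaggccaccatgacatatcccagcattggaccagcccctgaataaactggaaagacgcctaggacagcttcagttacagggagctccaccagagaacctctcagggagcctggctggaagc
Cnp, chr11:100574689-100574988, plus strand: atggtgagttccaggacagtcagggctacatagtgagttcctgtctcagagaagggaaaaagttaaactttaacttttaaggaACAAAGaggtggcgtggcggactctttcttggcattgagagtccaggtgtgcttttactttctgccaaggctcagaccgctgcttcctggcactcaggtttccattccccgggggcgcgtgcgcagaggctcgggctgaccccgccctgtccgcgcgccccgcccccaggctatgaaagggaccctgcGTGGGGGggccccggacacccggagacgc
Mag, chr7:30914814-30915113, minus strand: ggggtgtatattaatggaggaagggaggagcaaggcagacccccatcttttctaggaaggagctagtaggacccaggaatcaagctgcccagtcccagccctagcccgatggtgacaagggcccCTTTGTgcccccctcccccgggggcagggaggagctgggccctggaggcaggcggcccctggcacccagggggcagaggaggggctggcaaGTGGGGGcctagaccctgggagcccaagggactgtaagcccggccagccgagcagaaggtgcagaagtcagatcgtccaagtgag

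Mag and Cnp each held 1 SOX and 1 EGR match, Prx held 1 EGR match and no SOX match, and Pmp22 held neither. The windows of S100b and Ngfr, not shown, also held neither. Among all 32817 mouse RefSeq start windows of this length, 18.7% hold the SOX letters and 31.6% the EGR letters. Such a match is a description of the letters. Pmp22 has 4 RefSeq starts and Mag has 3, of which 1 each is shown.

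Before any comparison the label was set against 6 markers that define the Schwann cell lineage. In WT day 0 tendon Cdh19, a Schwann cell cadherin, averaged 4.47 ± 0.868 CPM (SD, n = 4). Erbb3, the neuregulin receptor of Schwann cells, averaged 9.25 ± 0.636 CPM and Egr2 6.58 ± 2.28 CPM. Sox10, Prx and Mag, from the 8 genes, completed the 6, and all 6 had counts in every group. Counts alone do not identify the cells, since the melanocyte markers with a row also had counts in every group. The 6 did not share 1 direction. At WT day 7 against WT day 0 Sox10, Prx, Cdh19 and Erbb3 were lower, and Mag and Egr2 were higher. Several of the 8 genes are not confined to nerve. Pmp22 is also a growth-arrest gene of fibroblasts, Cnp is expressed at low level in many tissues, S100b is strongly expressed by cartilage cells and fat cells, and Ngfr by several mesenchymal cells.

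Levels differed widely among the 8 genes. On a scale of CPM per kilobase of merged exon, Pmp22 stood at 180 in WT day 0 tendon, followed by Cnp at 8.19, Mbp at 4.4, S100b at 4.02 and Prx at 2.35. Sox10 at 1.03, Ngfr at 0.961 and Mag at 0.156 were lowest. Pmp22 was therefore far above every other myelin gene of the set, and Mag rested on 17 to 117 counts per library.

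**Figure D1:**
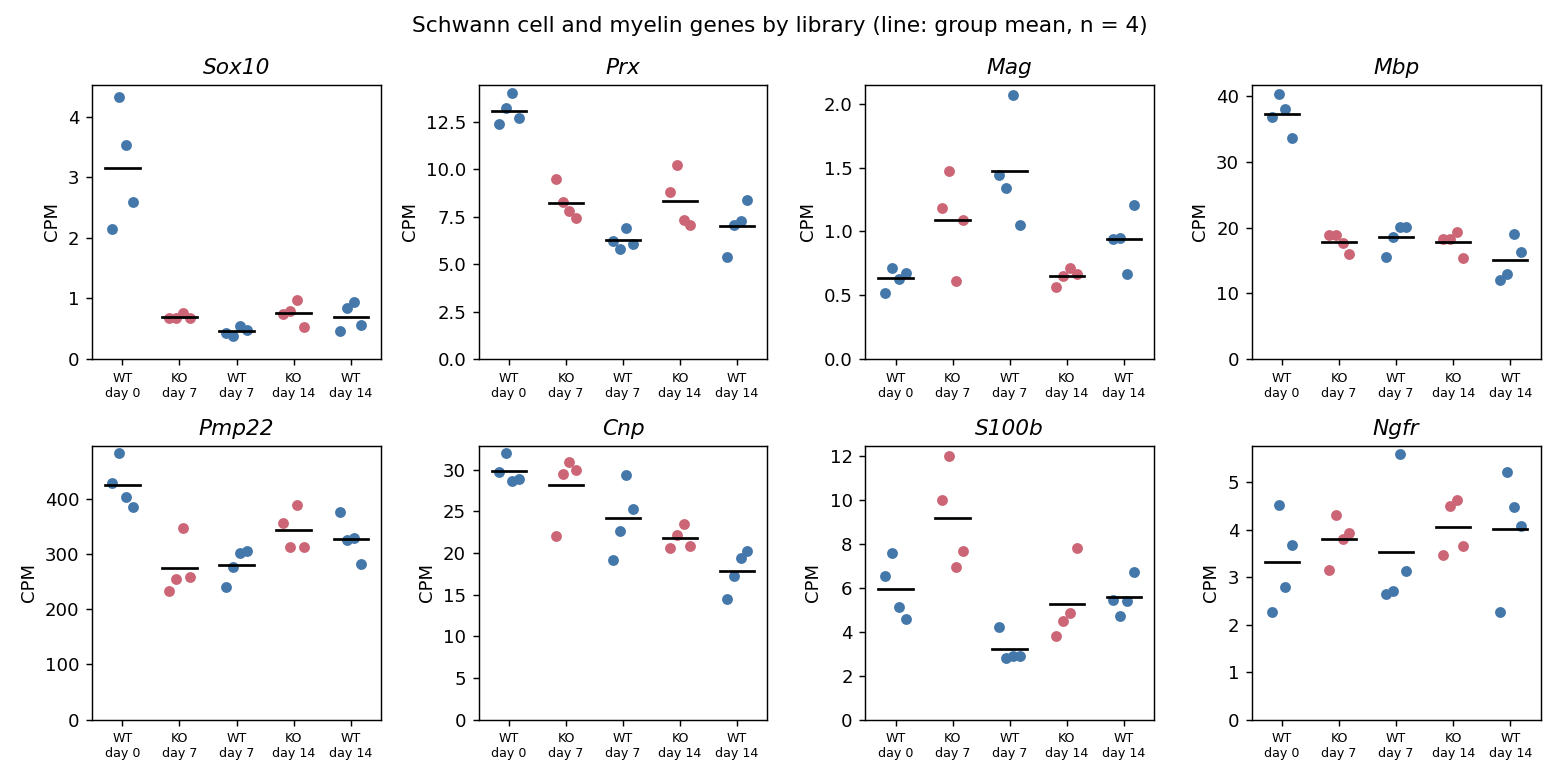
Level of each of the 8 genes in every library, in CPM (vertical axes start at 0 and differ between panels), with 1 point per library, blue for WT and red for KO, and a line at the group mean (n = 4). Sox10, Prx and Mbp had all 4 WT day 0 libraries above all 16 others, Mag was highest at WT day 7, and S100b at KO day 7. Of all genes, 50.3% to 64.1% were called between a later group and WT day 0. How many separate in this way was not counted.

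In WT tendon Sox10, Prx, Mbp, Pmp22 and Cnp were lower than at day 0 on both later days, and S100b at day 7. At WT day 7 against WT day 0, 6 of the 8 genes were lower and 1, Mag, was higher (edgeR quasi-likelihood test, Benjamini-Hochberg adjusted p below 0.05). Of all tested genes, 64.1% were called in this comparison, 32.3% higher and 31.8% lower. How many of all genes had libraries without overlap between groups was not counted, here or below. The median log2 fold change was -0.75 over the 8 genes and 0.02 over all genes. At WT day 14 against WT day 0, 5 genes were lower and none higher, beside 54.3% of all genes called, 28% higher and 26.2% lower, with medians of -0.56 and 0.02. In bulk RNA fewer Schwann cells, less RNA per cell and dilution by RNA of other cells cannot be told apart.

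Sox10 (ENSMUSG00000033006, chromosome 15, 79154908 to 79165240, minus strand, GRCm38), the lineage factor, changed most. It stood at 2.14, 4.33, 3.54 and 2.60 CPM in WT day 0 libraries, at 0.433, 0.373, 0.548 and 0.475 CPM in WT day 7 libraries and at 0.459, 0.844, 0.940 and 0.554 CPM in WT day 14 libraries. Every day 0 library lay above every later one. WT day 7 held 14.5% of the WT day 0 level (log2 fold change -2.79 ± 0.26 SE, adjusted p = 2.6e-08) and WT day 14 held 22.2% (-2.17 ± 0.26, adjusted p = 9.44e-07). The difference of WT day 14 from WT day 7, 0.62 ± 0.27, did not pass (adjusted p = 0.0887).

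Prx (ENSMUSG00000053198, chromosome 7, 27499324 to 27520214, plus strand) encodes periaxin, a scaffold that links the myelinating Schwann cell to its basal lamina. Its levels were 12.4, 13.2, 14.0 and 12.7 CPM at WT day 0, 6.23, 5.78, 6.88 and 6.08 CPM at WT day 7 and 5.36, 7.06, 7.29 and 8.36 CPM at WT day 14. The day 0 libraries again stood apart from all later ones. Prx fell to 47.6% of WT day 0 at WT day 7 (-1.07 ± 0.13, adjusted p = 9.28e-07) and to 53.5% at WT day 14 (-0.90 ± 0.13, adjusted p = 1.28e-05). Exons of the antisense gene Gm15541 overlap those of Prx, and the strand setting of the counting is not given, so reads of both cannot be told apart.

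Mbp (ENSMUSG00000041607, chromosome 18, 82475146 to 82585637, plus strand), which packs the inner faces of the myelin membrane, fell at both days. Its levels were 36.8, 40.3, 38.1 and 33.7 CPM at WT day 0, 15.5, 18.6, 20.1 and 20.1 CPM at WT day 7 and 12.1, 12.9, 19 and 16.3 CPM at WT day 14. No later library came near the lowest at day 0. WT day 7 held 49.8% of the WT day 0 level (-1.01 ± 0.12, adjusted p = 8.63e-07) and WT day 14 held 40.5% (-1.31 ± 0.13, adjusted p = 7.04e-08). The count is for the whole Mbp locus, which also yields Golli transcripts outside myelin.

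Pmp22 (ENSMUSG00000018217, chromosome 11, 63128982 to 63159547, plus strand), a tetraspan protein of compact myelin whose dosage causes inherited neuropathy in humans, fell less. It stood at 428, 483, 402 and 385 CPM at WT day 0, at 240, 276, 301 and 305 CPM at WT day 7 and at 376, 325, 328 and 281 CPM at WT day 14. WT day 0 libraries were all above those of both later days, though the lowest of them and the highest of WT day 14 lay close. The fold changes were -0.60 ± 0.12 at WT day 7 (adjusted p = 0.000333) and -0.37 ± 0.12 at WT day 14 (adjusted p = 0.0162). The day 14 call was lost without WT day 0 replicate 2 (adjusted p = 0.0638) or WT day 14 replicate 4 (adjusted p = 0.0542).

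Cnp (ENSMUSG00000006782, chromosome 11, 100574904 to 100591729, plus strand) encodes the enzyme that keeps cytoplasmic channels open in myelin, and its fall was larger at day 14 than at day 7. It measured 29.7, 32.0, 28.6 and 28.9 CPM at WT day 0, 19.2, 22.7, 29.4 and 25.3 CPM at WT day 7 and 14.5, 17.2, 19.4 and 20.2 CPM at WT day 14. WT day 7 overlapped both other days, while WT day 14 lay wholly below WT day 0. The day 7 change was -0.30 ± 0.13 (adjusted p = 0.0418) and passed no longer without any 1 of the 4 WT day 0 libraries (adjusted p = 0.0527 to 0.0979) or without WT day 7 replicate 1, 2 or 4 (0.154, 0.0968 and 0.0504), and under upper-quartile scaling (0.0515) or no filter on low counts (0.0587). WT day 14 was lower than WT day 0 (-0.74 ± 0.13, adjusted p = 6.85e-05) and lower than WT day 7 (-0.44 ± 0.13, adjusted p = 0.0133). The second of these was lost without WT day 7 replicate 3 (adjusted p = 0.0726) or WT day 14 replicate 1 (0.0547). Exons of Dnajc7 on the opposite strand overlap those of Cnp.

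Mag (ENSMUSG00000036634, chromosome 7, 30899176 to 30914873, minus strand), the myelin-associated glycoprotein that faces the axon, was the only 1 of the 8 genes called higher in WT tendon at day 7. It measured 0.520, 0.716, 0.625 and 0.674 CPM at WT day 0, 1.44, 1.34, 2.07 and 1.05 CPM at WT day 7 and 0.941, 0.952, 0.668 and 1.21 CPM at WT day 14. WT day 7 lay wholly above WT day 0, and WT day 14 overlapped both. WT day 7 reached 231% of WT day 0 (1.21 ± 0.26, adjusted p = 0.000466), while WT day 14 was not called (0.56 ± 0.27, adjusted p = 0.0811).

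Beside Mag, values of other cells moved too. Cd22, a receptor of B cells on the same strand and the next gene but 1 downstream of Mag (18833 bases away), averaged 0.211 ± 0.0343 CPM at WT day 0, 7.44 ± 0.925 CPM at WT day 7 and 4.29 ± 1.67 CPM at WT day 14 (SD, n = 4). Cd22 was singled out after its values were seen. The summed level of the 10 macrophage markers was 1950 to 2220 CPM at WT day 0, 3920 to 6950 CPM at WT day 7 and 3170 to 3700 CPM at WT day 14. The part of either in the Mag value was not tested.

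S100b (ENSMUSG00000033208, chromosome 10, 76253853 to 76261159, plus strand), a calcium-binding protein used to stain Schwann cells, fell at day 7 and was not called at day 14. Its levels were 6.54, 7.60, 5.14 and 4.57 CPM at WT day 0, 4.20, 2.81, 2.92 and 2.89 CPM at WT day 7 and 5.45, 4.71, 5.39 and 6.72 CPM at WT day 14. WT day 7 lay below both other days without overlap, and WT day 14 overlapped WT day 0. WT day 7 was lower than WT day 0 by -0.89 ± 0.23 (adjusted p = 0.00195), and WT day 14 was higher than WT day 7 by 0.79 ± 0.23 (adjusted p = 0.0125). Against WT day 0, WT day 14 was not called (-0.10 ± 0.23, adjusted p = 0.726). Dip2a on the opposite strand overlaps S100b, but not its exons.

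Ngfr (ENSMUSG00000000120, chromosome 11, 95568818 to 95587735, minus strand), the low-affinity neurotrophin receptor, did not pass any test. It had 2.26, 4.51, 2.79 and 3.68 CPM at WT day 0, 2.65, 2.71, 5.60 and 3.14 CPM at WT day 7 and 2.27, 5.21, 4.47 and 4.08 CPM at WT day 14. The libraries of the 3 days overlapped throughout. The changes were 0.08 ± 0.26 at WT day 7 (adjusted p = 0.798) and 0.27 ± 0.26 at WT day 14 (adjusted p = 0.404).

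**Figure D2:**
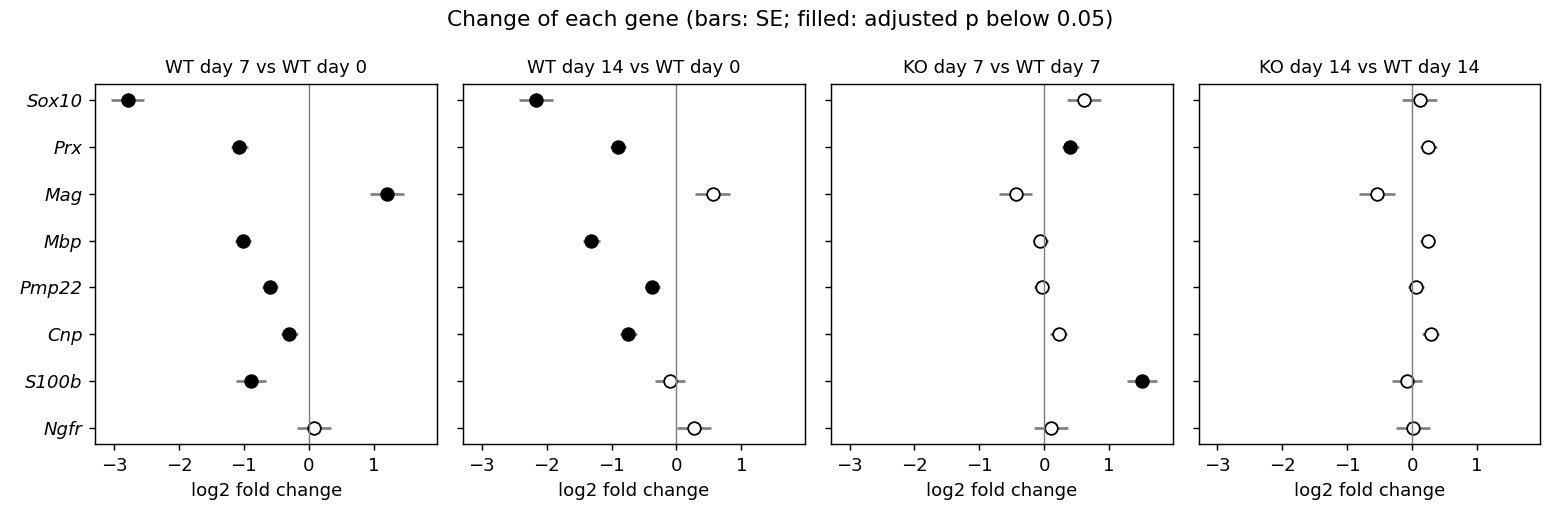
Log2 fold change of each of the 8 genes in 4 comparisons (horizontal axis; bars, SE; filled points, adjusted p below 0.05). Sox10 fell by 2.79 at WT day 7, Mag rose by 1.21, and S100b at day 7 was higher in KO than in WT by 1.51.

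At WT day 14 against WT day 7, 2 of the 8 genes were called, S100b higher and Cnp lower, beside 30.4% of all genes called (16% higher, 14.3% lower). The median over the 8 genes was 0.18 and over all genes 0.02.

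Most genes of the wider myelin sheath list fell as well. Of its 15 genes 12 were tested, and at WT day 7 against WT day 0, 8 fell and 2 rose, with a median of -1.47. Of all genes 31.8% were lower and 32.3% higher in that comparison. The tight junction protein of Schwann cells Cldn19 fell by 3.71 on the log2 scale, the raft protein Mal by 3.10 and the adhesion protein Cadm4 by 2.43. Cntn2, an axonal and glial contactin that had at most 8 counts in a WT day 0 library, rose by 3.29 ± 0.49 and Nfasc, which builds nodes of Ranvier, by 1.12 ± 0.22. At WT day 14 against WT day 0, 7 fell and 3 rose, with a median of -0.98, beside 26.2% and 28% of all genes. At WT day 14 against WT day 7, 4 of the 12 rose and none fell, beside 16% and 14.3% of all genes. Gldn, a secreted protein that Schwann cells use to cluster sodium channels at nodes, was among them, higher by 1.17 ± 0.25 (adjusted p = 0.00154).

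Regulators of the lineage were split. Of 13 listed transcription factors besides Sox10, 9 were tested, with 5 lower and 3 higher at WT day 7 against WT day 0. Of all genes 31.8% were lower and 32.3% higher there. Foxd3, a neural crest factor that had 1 to 7 counts in WT day 7 libraries, fell by 3.15 and Pou3f1, the promyelinating POU factor, by 2.50. Zeb2, which counters inhibitors of myelination, rose by 0.68 ± 0.09 and Nab1, a cofactor of Egr2, by 0.44 ± 0.08. Egr2 itself rose by 1.85 ± 0.37 (adjusted p = 0.000297) and is a gene that macrophages and fibroblasts also induce. At WT day 14 6 of the 9 were lower than at WT day 0 and 1 was higher, beside 26.2% and 28% of all genes.

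Genes of non-myelinating and repair Schwann cells did not share 1 direction. Of 13 tested, 7 rose and 4 fell at WT day 7 against WT day 0, and the same counts held at WT day 14. Of all genes, 32.3% were higher and 31.8% lower at WT day 7, and 28% and 26.2% at WT day 14. The adhesion molecule Ncam1 rose by 1.45 ± 0.17. Cdh19 fell by 2.48, the potassium channel Kcna1 by 2.68 and the adhesion molecule L1cam by 1.18. Gfap, a repair marker, was not called (0.37 ± 0.56, adjusted p = 0.58). Several of the genes that rose are also expressed outside nerve, Ncam1 in muscle among them. Which cells gave these rises was not tested.

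**Figure D3:**
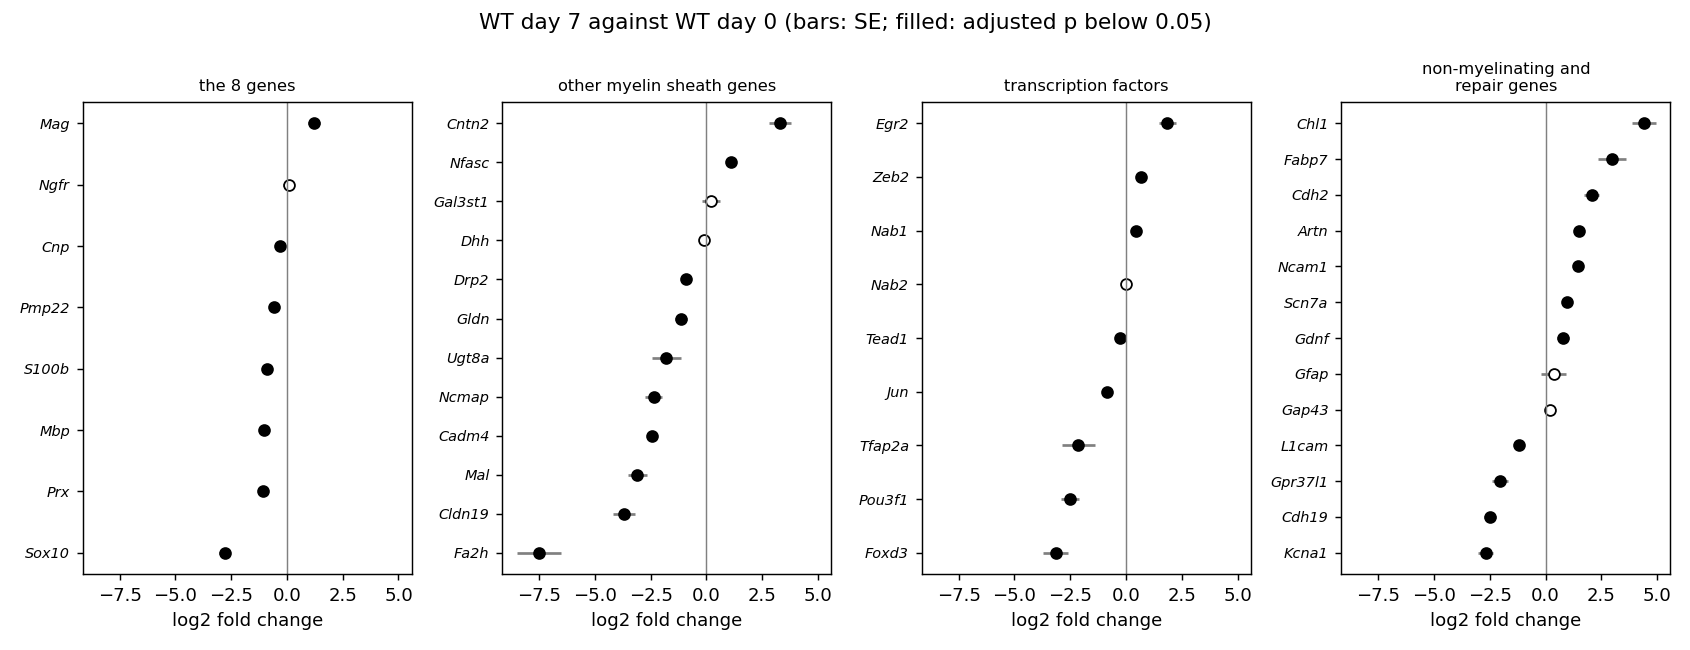
Log2 fold change (horizontal axis; bars, SE) of the 8 genes and of the tested genes of 3 further lists at WT day 7 against WT day 0, with filled points for an adjusted p below 0.05. In the myelin sheath list 8 of 12 genes fell and 2 rose, among the transcription factors 5 of 9 fell and 3 rose, and among non-myelinating and repair genes 4 of 13 fell and 7 rose. Of all genes 31.8% fell and 32.3% rose.

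Signals that reach Schwann cells were counted as 2 further lists. Of 12 neuregulin, ErbB and axon contact genes, 7 fell and 2 rose at WT day 7 against WT day 0. Of all genes 31.8% fell and 32.3% rose in that comparison. Lgi4, a secreted protein that Schwann cells need to ensheath axons, fell by 1.75 and Lama2, a laminin chain of their basal lamina, by 1.39. Adam17, a protease that cuts neuregulin, rose by 1.04 ± 0.08. Nrg1, the neuregulin ligand, averaged 8.77 ± 2.64 CPM at WT day 7 and 0.264 ± 0.0932 CPM at WT day 0 (SD, n = 4) and rose by 5.01 ± 0.53 (adjusted p = 1.73e-07). Among its receptors Erbb3 fell by 0.59 (adjusted p = 0.0171) and Erbb2 by 0.55 (adjusted p = 0.000243). Of 14 tested neurotrophins and partners of Ngfr, 6 rose and 6 fell. Sorcs2, a sortilin-family partner of Ngfr, rose by 3.07 ± 0.15, and the adaptors Maged1 and Bex3 by 1.51 ± 0.10 and 1.20 ± 0.14. Ntrk3, the receptor of neurotrophin-3, fell by 3.19. Of 3 relatives of Pmp22 in the Emp family, Emp3 rose by 0.40 ± 0.10, Emp2 fell by 0.33 and Emp1 was not called (0.11 ± 0.12, adjusted p = 0.477).

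Markers of other cells moved strongly in the same comparison, beside 31.8% of all genes called lower and 32.3% higher. All 12 adipocyte markers were called lower at WT day 7 than at WT day 0, and their summed level was 4150 to 6540 CPM at WT day 0, 655 to 1270 CPM at WT day 7 and 655 to 944 CPM at WT day 14. Of 14 muscle fibre markers 13 fell at WT day 7, and their sum was 24900 to 63900 CPM at WT day 0, 190 to 1530 CPM at WT day 7 and 2650 to 21600 CPM at WT day 14. Of 6 perineurial markers, the cells that wrap nerve bundles, 4 fell and 1 rose at WT day 7. Of the markers of melanocytes, another lineage that expresses Sox10, 2 of 3 tested were lower. The melanocyte list summed to 45.4 to 60.1 CPM at WT day 0 and 29.7 to 35.8 CPM at WT day 7. At WT day 14 it summed to 22.6 to 26.8 CPM. Chondrocyte markers summed to 7120 to 10300 CPM at WT day 0, 444 to 566 CPM at WT day 7 and 1570 to 2050 CPM at WT day 14, with 3 of 8 tested markers higher and 3 lower at WT day 7 than at WT day 0. The part of these cells in the falls of Sox10, Prx, Mbp, Pmp22, Cnp and S100b was not tested.

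Between genotypes S100b and Prx were called at day 7, and none of the 8 genes was called at day 14. At KO day 7 against WT day 7, 2 of the 8 genes were higher and none lower, beside 14.8% of all genes called (9.39% higher, 5.42% lower). The median log2 fold change was 0.16 over the 8 genes and -0.01 over all genes.

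S100b had 10, 12, 6.96 and 7.65 CPM in KO day 7 libraries, against 4.20, 2.81, 2.92 and 2.89 CPM in WT day 7 libraries. Every KO library was above every WT library. The KO level was 285% of the WT level (1.51 ± 0.23, adjusted p = 0.000354). The call held under every alternative tried, with adjusted p between 1.07e-08 and 0.00257.

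Prx had 9.46, 8.25, 7.82 and 7.43 CPM in KO day 7 libraries, against 6.23, 5.78, 6.88 and 6.08 CPM in WT day 7 libraries. These groups did not overlap either, but the difference was smaller (0.40 ± 0.13, adjusted p = 0.0479). It passed no longer without any 1 of 7 of the 8 libraries, WT day 7 replicate 3 being the exception, with adjusted p from 0.0614 to 0.119.

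Sox10 also lay higher in every KO day 7 library, at 0.682, 0.671, 0.761 and 0.673 CPM, than in any WT day 7 library, where it had 0.433, 0.373, 0.548 and 0.475 CPM. The groups did not overlap, but the test did not pass (0.61 ± 0.26, adjusted p = 0.127). Mag averaged 1.09 ± 0.354 CPM at KO day 7 and 1.47 ± 0.43 CPM at WT day 7 (SD, n = 4), with overlapping libraries (-0.44 ± 0.25, adjusted p = 0.243). Mbp, Pmp22, Cnp and Ngfr were not called, with fold changes between -0.06 and 0.22.

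At KO day 14 against WT day 14 none of the 8 genes was called by edgeR or by DESeq2, and 1 had an unadjusted p below 0.05, beside 1.78% of all genes called (1.06% higher, 0.719% lower). That share depended on 1 library. Without WT day 14 replicate 4, 1672 of all genes were called in place of 337, and still none of the 8. S100b averaged 5.25 ± 1.78 CPM at KO day 14 and 5.57 ± 0.841 CPM at WT day 14, with overlapping libraries (-0.08 ± 0.23, adjusted p = 0.899). Cnp had 20.6, 22.2, 23.5 and 20.8 CPM in KO day 14 libraries, against 14.5, 17.2, 19.4 and 20.2 CPM in WT day 14 libraries. These did not overlap, and Cnp was the gene with the unadjusted p below 0.05 (0.29 ± 0.13, adjusted p = 0.259 in edgeR). Mag averaged 0.648 ± 0.0624 CPM at KO day 14 and 0.942 ± 0.221 CPM at WT day 14 (-0.54 ± 0.27, adjusted p = 0.328). Prx was not called, with a fold change of 0.25 ± 0.13 (adjusted p = 0.365).

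The KO effect at day 14 minus that at day 7 was -1.59 ± 0.32 for S100b (adjusted p = 0.129 in edgeR), so the change of the S100b effect between days did not pass over all genes. It passed in DESeq2 (adjusted p = 0.00241) and without KO day 14 replicate 4 (-1.85, adjusted p = 0.024), the highest S100b library of its group at 7.83 CPM. Over all alternatives its adjusted p ran between 0.00241 and 0.236. None of the 8 genes was called for this difference by edgeR, 1 had an unadjusted p below 0.05, and 0% of all genes were called. For Prx the difference was -0.15 ± 0.19 (adjusted p = 0.818), so a loss of the Prx effect by day 14 was not shown. Averaged over both days, S100b (0.71 ± 0.16, adjusted p = 0.00509) and Prx (0.32 ± 0.09, adjusted p = 0.0231) were higher in KO than in WT, beside 19% of all genes called (10.5% higher, 8.51% lower). Prx was not called without KO day 14 replicate 2 (adjusted p = 0.0543).

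Cartilage genes were also higher in the day 7 KO libraries, beside 9.39% of all genes called higher than at WT day 7 and 5.42% lower. Of 8 tested chondrocyte markers 5 rose at KO day 7 against WT day 7, with Col2a1, Acan, Col11a2 and Snorc among them. Col2a1, the main cartilage collagen, averaged 143 ± 73.4 CPM at KO day 7 and 2.22 ± 1.60 CPM at WT day 7 (SD, n = 4). The list summed to 1070 to 1540 CPM at KO day 7 and 444 to 566 CPM at WT day 7. Against WT day 0 S100b was higher at KO day 7. The chondrocyte sum was 1070 to 1540 CPM at KO day 7 and 7120 to 10300 CPM at WT day 0. Gene by gene, 5 of the 8 tested chondrocyte markers were higher at KO day 7 than at WT day 0 and 1 was lower. Their median log2 fold change was 2.92, so sum and gene counts differed in direction. Of 14 muscle fibre markers 12 rose at KO day 7 against WT day 7. Their sums were 4710 to 11800 CPM at KO day 7 and 190 to 1530 CPM at WT day 7. Of 9 tenocyte markers, the cells the recombinase targets, 5 rose and none fell, and their sums were 85300 to 105000 CPM at KO day 7 and 45300 to 56500 CPM at WT day 7, without overlap. Adipocyte markers summed to 484 to 1030 CPM at KO day 7 and 655 to 1270 CPM at WT day 7. Keratinocyte markers reached 711 CPM in KO day 7 replicate 2 and 3.74 to 13.3 CPM in the other KO day 7 libraries, against 2.6 to 9.3 CPM at WT day 7. Without that library S100b was higher in KO by 1.37 (adjusted p = 0.00155). At KO day 14 against WT day 14 no chondrocyte or muscle fibre marker was called and 1 of 9 tenocyte markers was higher, beside 1.78% of all genes called. The part of these cells in the S100b and Prx differences was not tested.

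**Figure D4:**
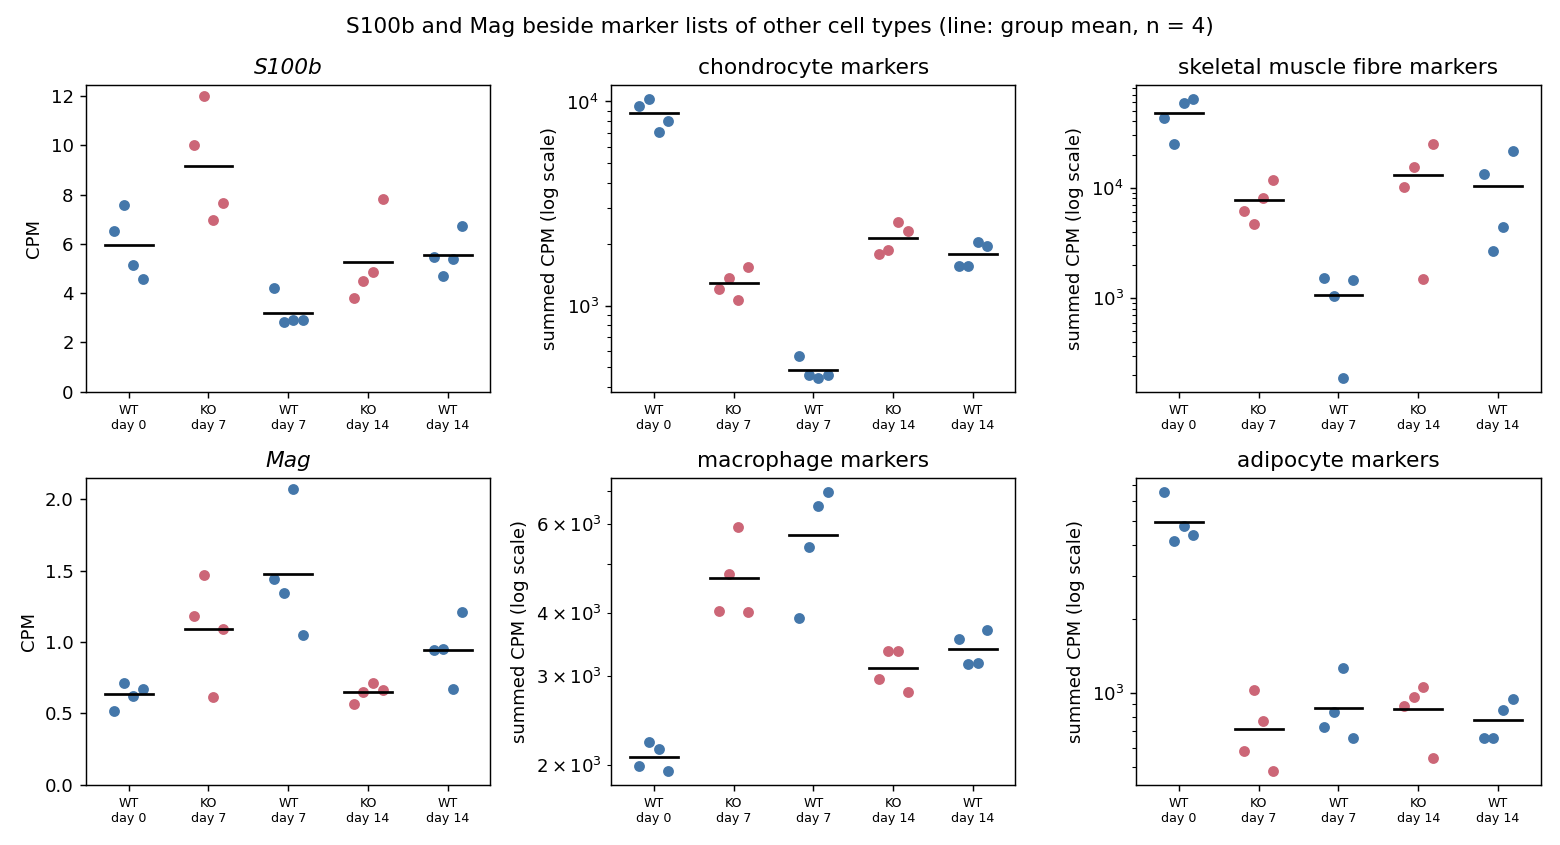
S100b and Mag in CPM (left panels, axes from 0) beside the summed CPM of 4 marker lists (log axes), with 1 point per library, blue for WT and red for KO, and a line at the group mean (n = 4). S100b and the chondrocyte sum were both higher in KO than in WT at day 7 without overlap, while at WT day 0 the chondrocyte sum was highest (7120 to 10300 CPM) and S100b was not. Gene by gene, 5 of 8 tested chondrocyte markers were higher at KO day 7 than at WT day 0 and 1 was lower. Mag and the macrophage sum were both higher at WT day 7 than at WT day 0.

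Genes of the other Schwann cell lists were also compared between genotypes, beside the 14.8% of all genes called at day 7 (9.39% higher, 5.42% lower). At KO day 7 against WT day 7, 1 of 12 myelin sheath genes rose, Ncmap, a myelin membrane protein (1.5 ± 0.40, adjusted p = 0.0191), and none fell. Ncmap had few counts, 10 to 29 in WT day 7 libraries and 27 to 62 in KO day 7 libraries. Pou3f1 rose by 1.41 ± 0.40 and Nab2 by 0.46 ± 0.12, while Zeb2 fell by 0.61, out of 9 transcription factors. Gfap rose by 1.71 ± 0.52 (adjusted p = 0.0342) as the only 1 of 13 non-myelinating and repair genes called. Of 12 neuregulin and axon contact genes 5 rose and none fell, among them Erbb2 by 0.52 ± 0.11, Lgi4 by 0.73 ± 0.19, and the laminin receptor Dag1 by 0.87 ± 0.19. Dag1 and Lama2 are also strongly expressed in muscle. Of the partners of Ngfr, the Nogo receptor Rtn4r rose by 1.12 ± 0.28 and the adaptor Traf6 fell by 0.26. At KO day 14 against WT day 14 no tested gene of these lists was called, beside 1.78% of all genes.

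Set against WT day 0, the KO groups repeated the falls of Sox10, Prx, Mbp and Pmp22. These comparisons share the WT day 0 libraries with the WT time course and differ in genotype, tamoxifen and stimulus at once. At KO day 7 6 of the 8 genes were called, 4 lower and 2 higher, beside 57.7% of all genes (29.4% higher, 28.3% lower). Sox10 changed by -2.18, Mbp by -1.06, Prx by -0.67 and Pmp22 by -0.63, while Mag was higher by 0.76 and S100b by 0.62. The Mag call was lost without KO day 7 replicate 2 (adjusted p = 0.0693) or in limma-voom (0.0512), and the S100b call without WT day 0 replicate 3 or 4 or KO day 7 replicate 1 or 2 (adjusted p = 0.0583 to 0.0943).

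At KO day 14 against WT day 0 5 were lower and none higher, beside 50.3% of all genes (25.4% higher, 25% lower). Sox10 changed by -2.05, Mbp by -1.07, Prx by -0.65, Cnp by -0.45 and Pmp22 by -0.31. The Pmp22 change (adjusted p = 0.0448) passed no longer without WT day 0 replicate 1, 2 or 3 or KO day 14 replicate 1, 2 or 4 (adjusted p = 0.0537 to 0.154), under upper-quartile scaling (0.058) or with no filter on low counts (0.0645).

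At KO day 14 against KO day 7 only S100b was called among the 8 genes (-0.80 ± 0.23, adjusted p = 0.0214), beside 15.7% of all genes (7.09% higher, 8.57% lower). S100b had 3.79, 4.50, 4.87 and 7.83 CPM at KO day 14, against 10, 12, 6.96 and 7.65 CPM at KO day 7, with replicate 4 at day 14 inside the day 7 range. The call was lost without KO day 7 replicate 1 (adjusted p = 0.054) or 2 (0.0851), without KO day 14 replicate 1, 2 or 3, or in a fit to these groups alone (0.0619).

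Likeness of profile across the 20 libraries was measured as the root mean square difference of log2 CPM after centring each gene, over 13286 genes. The closest pair among the 8 were Mbp and Prx at 0.26, and the farthest Mag and Sox10 at 1.32. Among all genes searched, a far larger choice than the 8, the nearest were as follows. Pithd1 lay 0.14 from Prx, Agpat2 0.16 from Mbp, Lmbrd1 0.11 from Pmp22 and Bahcc1 0.12 from Cnp. Lims2 lay 0.29 from Sox10, Fgfrl1 0.33 and Fgfr3 0.34 from S100b, Spidr 0.28 from Mag and Brat1 0.27 from Ngfr. All values come from the same 20 libraries.

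In the authors' deposited table, 7 of the 8 genes had a row among 13266, and Mag had none. Over 42 log2 fold changes of these genes, the authors' deposited table differed from the values here by at most 0.03, and all 42 fell on the same side of the 0.05 threshold.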

How the data were processed

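The authors deposited whole-number counts per gene for 20 libraries, after FastQC checks and STAR alignment to mm10, per the submitters' processing notes. No source used here gives the versions, the counting tool, the annotation or whether strand was used. The authors' deposited table gives log2 fold changes, average log2 CPM, p-values and false discovery rates of their own edgeR comparisons, per the file headers, and it entered no test. The sample titles gave each library's group and number. Counts were tested in R 4.3.3 with edgeR 4.0.16 (filterByExpr defaults, TMM scaling, 1 mean per group over all 20 libraries, robust quasi-likelihood F test) and p-values were adjusted over all 18918 tested genes. CPM used TMM-scaled library sizes, and log2 CPM for likeness a prior count of 2. The fit was tested on simulated data. SE is the fold change divided by the root of F. Depth was 32.3 to 63.5 M counts. Positions are from GENCODE vM21 on GRCm38. Alternatives tried were scaling by RLE or upper quartiles, 2 other filters, DESeq2 1.42.0, limma-voom 3.58.1, the compared groups alone, a replicate block and leaving out each library. In each further list, up to 4 called genes with the smallest p could be named, besides defining markers and genes that made up small counts. Cntn2, Nfasc, Erbb2, Emp1 and Gfap at WT day 7, Cd22 and the Col2a1 and Nrg1 levels were chosen after their values were seen. The 8 genes and the lists were chosen with earlier results of these data known. Some myelin genes are not reported here.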

Additional observations from a re-analysis of the deposited data

Results flagged for a closer look

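In 4 of the 40 groups of 4 libraries (8 genes in 5 groups), 1 library was flagged, its gap to the nearest library taking more of the group's range than Dixon's 95% critical value. Chance flags about 1 in 20 groups. Cnp in KO day 7 replicate 1 was 22.0 CPM, with the nearest library at 29.5 CPM (gap over range 0.843). Sox10 in KO day 7 replicate 3 was 0.761 CPM, with the nearest at 0.682 CPM (0.871). The Sox10 libraries of that group spanned only 0.671 to 0.761 CPM, on 27 to 44 counts, so this gap was small in CPM. S100b in WT day 7 replicate 1 was 4.20 CPM, with the nearest at 2.92 CPM (0.925), and without this library S100b was higher at KO day 7 than at WT day 7 by 1.68 (adjusted p = 0.000423 in edgeR's quasi-likelihood test). Ngfr in WT day 7 replicate 3 was 5.60 CPM, with the nearest at 3.14 CPM (0.837).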

How the results depend on the processing

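Of 1408 fold changes of the 8 genes recomputed under the alternatives, 1296 kept direction and call, 44 lost the call, 23 gained one, and 45 that were called in neither fit changed sign. None with a call changed sign. The number of the 8 genes called at KO day 7 against WT day 7 was 2, and 1 under upper-quartile scaling, without a filter on low counts and with the replicate block, Prx being lost in each (adjusted p = 0.0646, 0.0551 and 0.0617 in edgeR). At KO day 14 against KO day 7 it was 1, and 2 under the stricter filter, DESeq2 and the replicate block, where Cnp was gained (adjusted p = 0.0459, 0.0434 and 0.0208), and 0 in a fit to those groups alone (4 at an unadjusted p below 0.05). For the change of the KO effect between days it was 0, and 1 under DESeq2, which called S100b and 190 of all genes. The causes were not tested. Leaving out 1 library at a time gave 6 to 7 genes called at WT day 7 and 4 to 6 at WT day 14 against WT day 0, 1 to 3 at WT day 14 against WT day 7, 4 to 6 at KO day 7 and 4 to 5 at KO day 14 against WT day 0, 0 to 3 at KO day 14 against KO day 7, 1 to 2 at KO day 7 against WT day 7, 0 to 0 at KO day 14 against WT day 14, 0 to 1 for the change between days and 1 to 3 for the mean of both days. Over all genes these left 1440 to 2659 calls at KO day 7 against WT day 7 (2802 with all libraries), 152 to 1672 at KO day 14 against WT day 14 (337; 759 under DESeq2, 86 in those groups alone) and 1693 to 2956 at KO day 14 against KO day 7 (2962). The main fit did not treat replicate numbers as pairs. Of 40 same-numbered pairs of libraries, 14 had deviations from their group means correlated above 0.1 (lowest -0.165, median 0.047, highest 0.272). Pairs with different numbers had a median of -0.009. With the replicate block 3141 of all genes were called at KO day 7 against WT day 7, beside 2802 without it. Whether same numbers mark pairs was not tested. Mag (17 to 117 counts per library) and Sox10 (19 to 266) had the lowest counts of the 8 genes, and no test of what depth could detect was made for them.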

Other observations

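Genes of the axons that Schwann cells contact were counted separately. Of 11 tested axon and neuron genes, 6 rose and 3 fell at WT day 7 against WT day 0, where 64.1% of all genes were called, and 7 rose and 1 fell at WT day 14, where 54.3% were. Tubb3, a tubulin of neurons that other dividing cells can also express, averaged 1.01 ± 0.23 CPM at WT day 0, 6.38 ± 1.74 CPM at WT day 7 and 1.77 ± 0.529 CPM at WT day 14 (SD, n = 4). Prph, an intermediate filament of peripheral neurons, averaged 3.87 ± 0.325 CPM at WT day 0, 0.941 ± 0.528 CPM at WT day 7 and 8.36 ± 2.02 CPM at WT day 14. Nefl, a neurofilament subunit, had at most 0.627 CPM in any library. Between genotypes Tac1, which encodes substance P, was higher at KO day 7 than at WT day 7 by 1.66 ± 0.22 (adjusted p = 0.000111 in edgeR) and at KO day 14 than at WT day 14 by 1.12 ± 0.21 (adjusted p = 0.00784). Tac1 averaged 15.6 ± 3.59 CPM at KO day 14 and 7.18 ± 1.16 CPM at WT day 14. Prph was lower at KO day 14 than at WT day 14, changing by -1.12 ± 0.26 (adjusted p = 0.0343).

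Among perineurial markers, Ntn4 fell by 1.86 and Cldn1 by 1.47 at WT day 7 against WT day 0, while Slc2a1, a glucose transporter that many proliferating cells raise, rose by 1.08 ± 0.22. None of the 6 perineurial markers was called between KO and WT at day 7 or at day 14.

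In the authors' deposited table, a column headed as KO day 14 against WT day 7 held values close to the change of the KO effect between days. Over 13263 shared genes, the authors' deposited table lay a median of 0.00894 (log2) from that change as computed here and 0.394 from the direct difference of KO day 14 and WT day 7. For S100b the authors' deposited table gave -1.58, beside -1.59 for the change of the effect and 0.71 for the direct difference. For Sox10 the authors' deposited table gave -0.48, beside -0.49 and 0.74. This was seen only after the values were compared.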
